A study of Mus musculus with 23 samples.

Results

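The liver response to pregnenolone 16α-carbonitrile (PCN), a ligand of the rodent pregnane X receptor (PXR, gene Nr1i2), was compared between mice with and without the receptor. All 23 arrays of the series entered the comparison, 1 array per mouse. The interaction was defined as the PCN change in wild-type (WT) mice minus the PCN change in Pxr-/- mice, for every gene. WT CONT mice (6) and Pxr-/- CONT mice (6) received corn oil, and WT PCN mice (5 arrays) and Pxr-/- PCN mice (6) received PCN at 100 mg/kg in corn oil, injected i.p. once a day for 4 days. All mice were C57Bl6/J males with free access to food, and livers were taken at ZT6, which was 6 h after the final dose. The study describes mice at this time of day as semi-fasted. WT mice were bought at 6 weeks of age, whereas Pxr-/- mice came from an in-house colony, so that origin and genotype cannot be told apart. The age of the Pxr-/- mice is not given. Mice were acclimatised for 2 weeks. The study planned 6 WT PCN mice. Whole liver was used, so fewer cells of a type and less RNA per cell cannot be told apart.

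PXR is a nuclear receptor that binds many drugs, steroids and bile acids. With its partner RXR it binds DNA elements built from repeats of a short half-site and switches on genes for the oxidation, conjugation and export of foreign compounds, chiefly in liver and gut. Its relative CAR (gene Nr1i3) acts on an overlapping set of genes, with Cyp3a genes as the textbook targets of PXR and Cyp2b genes as those of CAR. PXR has also been tied to hepatic lipid storage.

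Total RNA was hybridised to Agilent 1-colour arrays, and of the 56605 probes, 29506 to 33319 per array rose well above background. Values are quantile-normalized log2 signals, changes are log2 differences from 1 limma fit with the washing batch as a term, and errors of changes are standard errors unless a 95% interval is given. A gene was called at a Benjamini-Hochberg adjusted p of at most 0.05 over all probes tested with a change above 1.5-fold. Before normalization the mean log2 signal over the tested probes was 8.65 ± 0.086 (SD) in WT PCN, 8.51 ± 0.12 in WT CONT, 8.41 ± 0.14 in Pxr-/- CONT and 8.45 ± 0.073 in Pxr-/- PCN. P-values measure the spread between these mice. Both washing batches held all 4 groups.

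The deleted gene was examined first. The single Nr1i2 probe (chr16:38248745-38248804, mm9) ranged from 10.63 to 12.15 (median 11.60) in WT CONT, from 10.16 to 12.08 (median 11.79) in Pxr-/- CONT and from 11.05 to 12.41 (median 12.06) in Pxr-/- PCN, and read 12.18, 12.46, 12.07, 11.78 and 11.99 in the WT PCN mice. All 4 groups overlapped, and Pxr-/- CONT differed from WT CONT by -0.03 ± 0.28 (limma adjusted p = 0.977). Whether this probe lies in the deleted part of the gene is not given in the sources used here, so it does not check the genotype labels.

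Of 21183 genes tested, 171 (0.807%) had a more positive PCN change in WT than in Pxr-/- mice (interaction above 0) and 51 (0.241%) a more negative one (interaction under 0). The share of calls above 0 was 77.0%, and it was 87.7% (229 above 0 and 32 under 0) with the normalized values deposited by the authors, in which the median of all genes shifted by 0.11 for PCN in WT mice and by -0.11 for genotype in vehicle-treated mice. With the arrays of 1 washing batch alone, 71 genes lay above 0 and 13 under 0 in the first batch, and 79 and 13 in the second. For 69 of the 222 genes called on all arrays there were further kept probes, 88 in all, of which 79 had the same sign and 32 were themselves called. In the WT mice alone, PCN raised 799 genes (3.77%) and lowered 506 (2.39%), against 300 (1.42%) and 181 (0.854%) in Pxr-/- mice. Vehicle-treated Pxr-/- mice had 48 genes (0.227%) higher and 17 (0.0803%) lower than WT CONT.

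Genes called in WT mice were then sorted by the interaction and by the 95% interval of the Pxr-/- change. A gene was taken to need the receptor fully when its interaction was called and the Pxr-/- interval held 0 and ended below 50% of the WT change. It needed the receptor in part when the interaction was called but the Pxr-/- interval lay wholly on the side of the WT change, and it was opposed when that interval lay on the other side of 0. No need required a called change in both genotypes and an interaction whose whole interval was within 50% of the WT change. Full need was found for 105 rises (0.496%) and 26 falls (0.123%), and partial need for 22 rises (0.104%) and 6 falls (0.0283%). Opposed changes were found for 14 rises (0.0661%) and 5 falls (0.0236%), and no need for 6 rises (0.0283%) and 3 falls (0.0142%). The other 652 rises (3.08%) and 466 falls (2.2%) met none of these rules and remained unresolved, which is 85.7% of the 1305 genes called in WT mice. By limma, 0 genes called in WT mice had an interaction called against the direction of the WT change, and 1 had one at an unadjusted p under 0.05. The interaction contains the WT change by which these genes were picked, so a low count is partly built in. It does not show that changes were never larger in Pxr-/- mice. Leaving out 1 array moved the partial-need rises to 14 (without Pxr-/- PCN replicate 3) and the falls to 2 (without Pxr-/- CONT replicate 1), the opposed genes from 19 to 12 (without Pxr-/- CONT replicate 5) and the no-need genes from 9 to 4 (without WT PCN replicate 4). It moved the Pxr-/- calls to 197 rises and 114 falls (without Pxr-/- PCN replicate 4). Outside these, 11 genes (0.0519%) were called in the interaction and in Pxr-/- mice alone, and 33 (0.156%) in the interaction with no call in either genotype. The classes are a sort by calls, so their own values carry no further test. Full and partial need differ by whether the Pxr-/- interval held 0, which also depends on its width. They do not rank genes by the share of the WT log2 change kept in Pxr-/- mice. That share reached 18.9% in full-need rises and 20.7% in full-need falls, and began at 8.65% in partial-need rises.

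**Figure D1:**
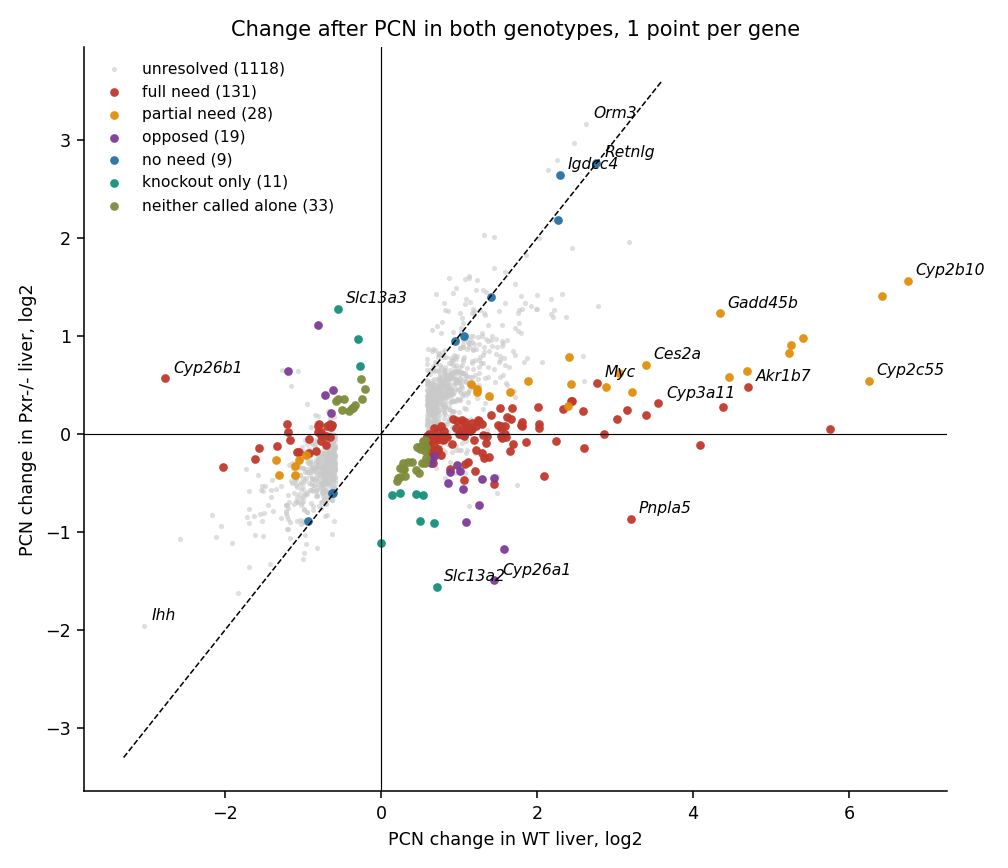
Log2 change after PCN in WT liver (x axis) against that in Pxr-/- liver (y axis), 1 point per gene called in WT mice or in the interaction, coloured by class with the number of genes in the key. The dashed line marks equal change. Full-need genes lie near the horizontal line at 0, and the 1118 unresolved genes (grey) spread around and between that line and the dashed one.

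To show what was measured, probes of the Cyp3a family are printed with RefSeq promoters of genes that differed in class. The Cyp3a11 probe matches 4 RefSeq genes (Cyp3a11, Cyp3a41a, Cyp3a41b and Cyp3a44) and spans chr5:146672058-146673925 in mm9, on the minus strand, and the Cyp3a59 probe lies at chr5:146920638-146920697 in mm9 and matches Cyp3a59 alone. Both are 60 bases long.
Cyp3a11 probe: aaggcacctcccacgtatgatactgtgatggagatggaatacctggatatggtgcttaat
Cyp3a59 probe: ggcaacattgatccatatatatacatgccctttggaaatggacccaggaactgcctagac
Promoter windows run from 250 bases before to 50 bases after the start of a gene in RefSeq (GRCm38.p6). Capitals mark the half-sites AGTTCA and AGGTCA on either strand. A match does not show which receptor, if any, binds there. Cyp3a11 (chr5:145879805-145880104, minus strand) and Cyp3a59 (chr5:146079008-146079307, plus strand) were full-need genes, and Cyp26a1 (chr19:37697558-37697857, plus strand) was opposed.
Cyp3a11 promoter: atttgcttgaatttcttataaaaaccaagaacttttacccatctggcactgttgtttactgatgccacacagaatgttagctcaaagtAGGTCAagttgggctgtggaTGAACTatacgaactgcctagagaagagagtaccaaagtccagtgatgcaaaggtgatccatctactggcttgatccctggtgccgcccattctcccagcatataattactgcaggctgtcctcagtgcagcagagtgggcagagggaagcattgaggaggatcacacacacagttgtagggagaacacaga
Cyp3a59 promoter: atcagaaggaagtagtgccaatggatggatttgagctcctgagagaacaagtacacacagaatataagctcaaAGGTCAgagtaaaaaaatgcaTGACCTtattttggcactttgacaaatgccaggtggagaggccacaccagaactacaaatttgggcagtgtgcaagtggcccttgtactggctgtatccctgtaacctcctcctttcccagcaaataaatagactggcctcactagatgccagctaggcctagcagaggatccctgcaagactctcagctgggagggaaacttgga
Cyp26a1 promoter: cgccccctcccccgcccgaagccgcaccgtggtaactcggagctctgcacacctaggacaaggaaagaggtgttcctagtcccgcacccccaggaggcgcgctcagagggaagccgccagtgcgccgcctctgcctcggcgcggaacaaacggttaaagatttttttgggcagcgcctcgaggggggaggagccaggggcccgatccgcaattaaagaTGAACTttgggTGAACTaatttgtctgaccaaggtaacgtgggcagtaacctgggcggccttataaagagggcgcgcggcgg
The half-sites lay 162 and 142 bases before the start of Cyp3a11, 177 and 156 before that of Cyp3a59, and 32 and 21 before that of Cyp26a1. At least 1 half-site, in any window of the gene, was held by 30.4% of all 27025 genes with a window and by 26.2% of the 12447 of them that were tested. Among the classes it was held by 28 of 60 full-need rises (46.7%), 5 of 15 full-need falls (33.3%), 3 of 16 partial-need rises (18.8%) and 3 of 4 partial-need falls (75%). It was held by 4 of 11 opposed rises (36.4%), 3 of 3 opposed falls, 2 of 6 no-need rises (33.3%) and 1 of 2 no-need falls, and by 28.4% of unresolved rises and 29.9% of unresolved falls. Cyp3a genes are near copies of each other and are not independent entries in these counts. Paired half-sites arranged as DR3, DR4, ER6 or ER8 on either strand were held by 19 genes in all (0.0703%), by 2 of the tested genes (0.0161%), and by no gene of any class. These counts describe the letters in a short window.

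Oxidation enzymes of the Cyp3a family were among the fully receptor-dependent rises. All 7 Cyp3a members called in WT mice needed the receptor fully: Cyp3a11, Cyp3a16, Cyp3a25, Cyp3a41a, Cyp3a44, Cyp3a57 and Cyp3a59. Cyp3a11, the main drug-oxidising P450 of mouse liver, read 16.90, 17.29, 17.20, 17.28 and 17.12 in WT PCN mice, against 12.83 to 14.02 (median 13.66) in WT CONT. In Pxr-/- mice it read 13.33 to 14.78 (median 14.45) with vehicle and 14.14 to 15.13 (median 14.64) with PCN. The WT groups were apart by over 2 log2 units and the Pxr-/- groups overlapped. The WT change was 3.55 ± 0.23 (11.7-fold), the Pxr-/- change 0.31 ± 0.22 (95% interval -0.13 to 0.76), and the interaction 3.24 ± 0.31 (limma adjusted p = 1.23e-06). Cyp3a16 gave 3.16 and 0.24, and Cyp3a59, whose probe matches no relative, 2.59 and 0.24, for the WT and the Pxr-/- change. Near-identical Cyp3a copies can share signal on these probes. Cyp3a13 was the exception in the family, with 0.03 in WT and 0.17 in Pxr-/- mice.

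Other fully dependent rises covered reduction and conjugation. Akr1b7, an aldo-keto reductase (probe chr6:34372905-34372964, mm9), read 9.15, 10.72, 10.17, 11.89 and 10.21 in WT PCN mice and 5.26 to 6.54 (median 5.51) in WT CONT. Its Pxr-/- values were 6.33 to 7.77 (median 7.12) with vehicle and 7.43 to 8.18 (median 7.54) with PCN. The rise in WT mice was 26.2-fold, and the interaction was 4.23 ± 0.48 (limma adjusted p = 1.2e-05). Glutathione S-transferases, which attach glutathione to reactive compounds, numbered 21 tested members, of which 8 rose in WT and 1 in Pxr-/- mice, and 6 were called in the interaction. Gstm1, Gstm3, Gstm4, Gsta4 and Gstt3 needed the receptor fully, with WT changes of 1.66, 1.68, 2.45, 1.20 and 1.59 and Pxr-/- changes of 0.15, 0.27, 0.34, -0.38 and 0.08. Gstm2 needed it in part (2.41 and 0.78). Sult2a7, a sulfotransferase, changed by 2.24 in WT mice and gave -0.07 in Pxr-/- mice. Among glucuronide and sulfate enzymes, 6 of 25 rose and 1 fell in WT mice. In Pxr-/- mice 0 rose (limma, with 5 at an unadjusted p under 0.05) and 2 fell, against 0.854% of all genes that fell. Ugt2a1 and Ugt2b35 were called in the interaction. The efflux pump gene Abcb1a had an interaction of 1.49 ± 0.35 (limma adjusted p = 0.032), which was 0.0827 without WT PCN replicate 2.

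Neighbouring probes on chromosome 9 showed the largest fully dependent change. Gm10639 (probe chr9:78153243-78153302, mm9) rose by 4.38 ± 0.63 in WT mice and gave 0.27 ± 0.60 in Pxr-/- mice. A probe named by its position, at chr9:78116834-78116893 in mm9 and chosen after its value was seen, had the largest interaction of the class, 5.70 ± 1.00 (limma adjusted p = 0.00266). A further position-named probe there had 3.20 and a transcript-named one 4.21, both also chosen after seeing their values. Whether these probes share signal was not tested.

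Lipid and growth genes also appeared among the fully dependent rises. Pnpla5 and Pnpla3 encode patatin-like phospholipase domain proteins of lipid droplets. Pnpla3 read 8.67, 9.03, 9.03, 7.16 and 7.79 in WT PCN mice, against 5.15 to 6.71 (median 5.36) in WT CONT. Its Pxr-/- values were 5.72 to 8.85 (median 7.06) with vehicle and 6.01 to 8.45 (median 7.12) with PCN. The WT groups did not overlap, and the Pxr-/- groups overlapped almost wholly. The interaction was 2.86 ± 0.65 (limma adjusted p = 0.0245), and 0.0565 without WT PCN replicate 2. Pnpla5 changed by 3.20 ± 0.56 in WT and gave -0.87 ± 0.53 in Pxr-/- mice, and it stood 3.32 ± 0.53 higher in Pxr-/- CONT than in WT CONT. Myc, a growth transcription factor, read 9.84, 10.13, 9.51, 10.07 and 9.52 in WT PCN mice against 6.60 to 7.81 (median 6.81) in WT CONT. In Pxr-/- mice Myc read 6.66 to 8.45 (median 7.03) and 7.03 to 8.51 (median 7.66). Its WT change was 2.77 ± 0.30, its Pxr-/- change 0.52 ± 0.29 and its interaction 2.24 ± 0.41 (limma adjusted p = 0.00417). Gdf15, a stress-induced secreted factor, rose by 2.02 ± 0.30 in WT mice and gave 0.10 ± 0.28 in Pxr-/- mice. Of 20 tested genes of the NRF2 antioxidant list, 5 rose in WT and 0 in Pxr-/- mice (limma, with 5 at an unadjusted p under 0.05). In Pxr-/- mice 2 of the list fell, and in WT mice 0. Gsr, Pgd and Srxn1, which supply or use reducing power, needed the receptor fully (WT changes 0.79, 0.79 and 0.61).

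Fully dependent falls were fewer and smaller, with a median WT change of -0.82. Ppara, the receptor that drives hepatic fatty acid oxidation, read 13.50, 13.61, 13.78, 13.36 and 13.43 in WT PCN mice and 14.43 to 14.72 (median 14.55) in WT CONT. In Pxr-/- mice it read 14.29 to 14.62 (median 14.52) and 14.04 to 14.50 (median 14.32). The WT groups did not overlap. Its WT change was -1.05 ± 0.10, its Pxr-/- change -0.18 ± 0.09 and its interaction -0.87 ± 0.14 (limma adjusted p = 0.000882). Ppara kept the full-need class in 7 of 14 alternative settings and with 18 of 23 arrays left out in turn, and was a partial-need fall in the processed signal, among others. Of 43 tested PPARα targets and fatty acid oxidation genes, 11 fell and 1 rose (Pdk4) in WT mice and 0 were called in Pxr-/- mice by limma (8 lower and 1 higher at an unadjusted p under 0.05), but only Cpt1a (-0.77 in WT, 0.02 in Pxr-/-) was called in the interaction. The median change of the list was -0.40 in WT and -0.16 in Pxr-/- mice, against -0.02 and -0.01 over all genes. Fgf21, a PPARα-controlled hormone, fell by 2.17 in WT mice, gave -0.82 in Pxr-/- mice, and its interaction of -1.35 ± 0.60 had a limma adjusted p of 0.296. Cyp26b1, which degrades retinoic acid, read 7.98, 6.67, 7.66, 6.71 and 8.40 in WT PCN mice, 8.98 to 11.20 in WT CONT, 7.17 to 10.36 in Pxr-/- CONT and 8.04 to 10.48 in Pxr-/- PCN. Its interaction was -3.33 ± 0.70 (limma adjusted p = 0.0146). S1pr5, a receptor for the lipid sphingosine 1-phosphate, and Cxcl12, a chemokine, had WT changes of -1.20 and -0.79 and Pxr-/- changes of 0.10 and 0.10. Kcnk10, a potassium channel gene, was not well above background on any WT PCN array and was at least 3.61-fold lower than in WT CONT. That bound takes the brighter group's mean against the dimmer group's mean of, per array, the higher of the lowest well-above-background signal and the probe's own.

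**Figure D2:**
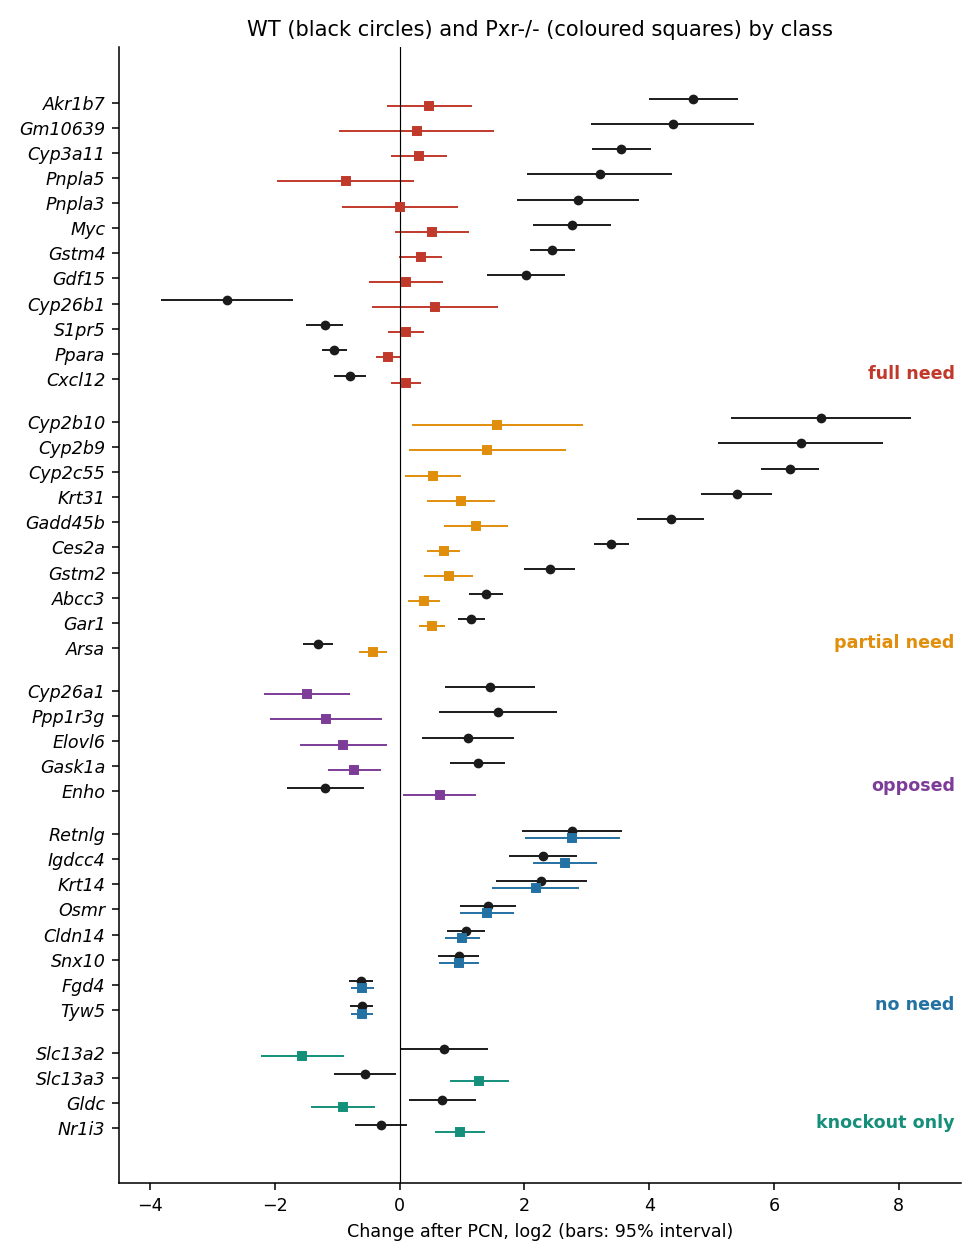
Log2 change after PCN in WT (black circles) and Pxr-/- mice (coloured squares) with 95% intervals, for named genes grouped by class. Pxr-/- intervals hold 0 in the full-need group, lie on the WT side in the partial-need group and on the other side in the opposed group, and lie at the WT values in the no-need group.

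Partial need held the largest rises of the data. Over its 22 rises, the median WT change was 3.14 and the median Pxr-/- change 0.56, so that the Pxr-/- mice kept a median of 21.0% of the WT log2 change (8.65 to 44.6%). The class rests on the unadjusted 95% interval and needs no call in Pxr-/- mice. Of 260 genes called in the same direction in both genotypes, 245 were unresolved and 9 had no need, which leaves few with partial need. Cyp2b10, the textbook CAR target, read 13.96, 15.17, 14.35, 16.04 and 14.83 in WT PCN mice and 6.74 to 10.99 (median 7.78) in WT CONT. In Pxr-/- mice it read 6.56 to 10.49 (median 8.88) with vehicle and 7.88 to 11.61 (median 10.30) with PCN. The WT groups were far apart, whereas the Pxr-/- groups overlapped. The WT change was 6.76 ± 0.70 (108-fold), the Pxr-/- change 1.57 ± 0.66 (2.96-fold, 95% interval 0.19 to 2.94, limma adjusted p = 0.166) and the interaction 5.19 ± 0.96 (limma adjusted p = 0.00427). Cyp2b9 moved with it (6.43 and 1.41), but its probe also matches Cyp2b10. Cyp2c55 read 12.61, 13.68, 13.35, 13.86 and 13.25 in WT PCN mice, 6.64 to 8.10 (median 6.81) in WT CONT, 9.60 to 10.62 (median 9.79) in Pxr-/- CONT and 10.40 to 10.56 (median 10.45) in Pxr-/- PCN. Its level in Pxr-/- CONT was thus 2.80 ± 0.22 above WT CONT with no PCN given. The interaction was 5.72 ± 0.31 (limma adjusted p = 1.89e-10). Ces2a, a carboxylesterase that hydrolyses drug esters, changed by 3.39 ± 0.14 in WT and 0.71 ± 0.13 in Pxr-/- mice, a rise called in both (limma adjusted p = 0.00319 in Pxr-/-). Its relative Ces2f gave 2.88 and 0.48, Cyp2c38 1.89 and 0.54, and the bile acid exporter Abcc3 1.38 and 0.39.

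Genes outside drug handling shared this graded pattern. Gadd45b, a stress-response gene, read 11.38, 11.74, 11.51, 12.02 and 11.71 in WT PCN mice and 6.93 to 8.0 in WT CONT. The Pxr-/- values were 6.54 to 7.92 in Pxr-/- CONT and 7.62 to 9.29 in Pxr-/- PCN, with changes of 4.35 ± 0.26 and 1.23 ± 0.25, each called (limma adjusted p = 0.00546 in Pxr-/-). Krt31, a hair keratin gene, changed by 5.41 ± 0.27 and 0.98 ± 0.26, and both were called. Rnf150, a RING finger gene, changed by 5.23 and 0.83, also called in both genotypes. Pou5f1 gave 4.70 and 0.65 and Myom3 4.46 and 0.58, of which the WT changes were called. Myom3 kept its class in 9 of 14 alternative settings and with 8 of 23 arrays left out in turn. Gar1, a ribosomal RNA modification factor, gave 1.15 and 0.51 with an interaction adjusted p of 0.0257 by limma, and 0.0652 without WT PCN replicate 2. The 6 partial falls included the lysosomal enzyme gene Arsa (-1.31 and -0.42), Trp53inp2 (-1.35 and -0.27) and the sphingosine 1-phosphate receptor S1pr1 (-0.96 and -0.21). Mfhas1 (-1.11 and -0.33) lost its interaction call without WT PCN replicate 2 (limma adjusted p = 0.0733).

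**Figure D3:**
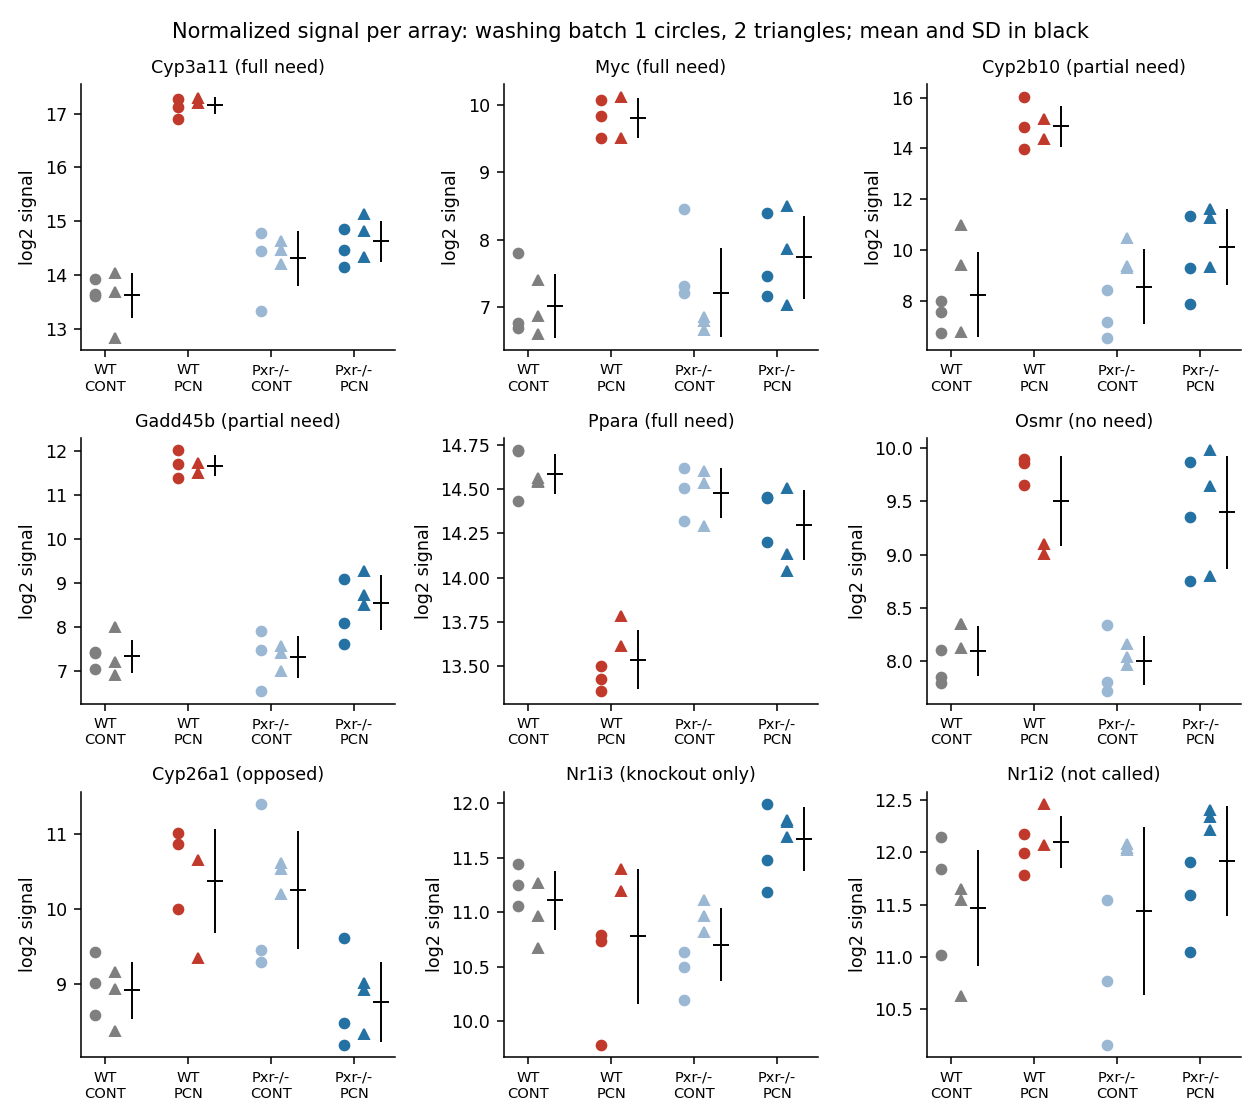
Normalized log2 signal on each array for 9 genes, in the 4 groups, with washing batch 1 as circles and batch 2 as triangles and the mean ± SD in black. Cyp3a11, Myc and Ppara separate WT PCN from the other groups, Osmr separates both PCN groups from both CONT groups, and Nr1i2 separates none.

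Opposed genes rose in WT mice while their Pxr-/- interval lay below 0, or the reverse. Cyp26a1, which degrades retinoic acid, read 9.99, 9.34, 10.65, 10.86 and 11.004 in WT PCN mice against 8.36 to 9.42 (median 8.97) in WT CONT, and the lowest of the former overlapped the latter. In Pxr-/- mice it read 9.29 to 11.40 (median 10.36) with vehicle and 8.18 to 9.61 (median 8.69) with PCN. It rose by 1.45 ± 0.35 in WT mice and fell by 1.49 on the log2 scale in Pxr-/- mice (limma adjusted p = 0.0101), with an interaction of 2.95 ± 0.48 (limma adjusted p = 0.00143). Cyp26a1 and Cyp26b1 therefore had interactions of opposite sign. Gask1a rose by 1.25 and fell by 0.73, and it stood 1.82 ± 0.20 higher in Pxr-/- CONT than in WT CONT. Ppp1r3g, a glycogen-targeting phosphatase subunit, had a WT change of 1.58 and a Pxr-/- interval of -2.07 to -0.28, and Elovl6, a fatty acid elongase, had 1.09 and -1.60 to -0.20. Their interaction calls were lost without 1 array, at 0.0518 for Ppp1r3g without Pxr-/- CONT replicate 5 and 0.110 for Elovl6 without WT PCN replicate 2 (limma adjusted p). Enho, which encodes a secreted peptide, fell by 1.19 in WT mice and had 0.64 (0.05 to 1.23) in Pxr-/- mice. Without WT PCN replicate 2 its interaction had a limma adjusted p of 0.0509.

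Some genes were called in the interaction and in Pxr-/- mice but not in WT mice. Nr1i3 (CAR) read 11.18 to 11.99 (median 11.76) in Pxr-/- PCN mice against 10.20 to 11.11 (median 10.73) in Pxr-/- CONT. It read 10.67 to 11.44 (median 11.16) in WT CONT, and 10.73, 11.40, 11.19, 9.78 and 10.79 in WT PCN mice. The Pxr-/- groups did not overlap and the WT groups did. It rose by 0.97 ± 0.19 in Pxr-/- mice, its WT change was -0.30 ± 0.20, and its interaction was -1.27 ± 0.28 (limma adjusted p = 0.0213), with 0.0504 from the deposited values. Slc13a3, a dicarboxylate transporter, rose by 1.28 in Pxr-/- mice with -0.55 in WT, and its relative Slc13a2 fell by 1.56 with 0.71 in WT. Gldc, of the glycine cleavage system, fell by 0.90 in Pxr-/- mice with 0.68 in WT. The bile acid receptor gene Nr1h4 had an interaction of -0.62 with no call in either genotype, as had Dipk2a (-0.92), F5 (-0.64) and the hedgehog transducer Smo (0.74). Gramd4 (0.89) and Lrrc14b (0.82), of the same kind, were not called without 1 array (limma adjusted p = 0.0512 and 0.065).

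Changes that met the rule for no need were few. Retnlg, a resistin-like gene of neutrophils, read 9.11, 8.59, 7.93, 9.66 and 9.61 in WT PCN mice and 8.20 to 10.09 (median 9.09) in Pxr-/- PCN. Vehicle-treated mice read 5.65 to 6.99 (median 5.99) and 5.49 to 7.37 (median 6.24). It rose by 2.76 in both genotypes, 6.78-fold and 6.79-fold, with an interaction of 0 to 2 decimals (95% interval -1.11 to 1.1). In the washing batches taken alone, the interaction of Retnlg was 1.15 and -1.38. The receptor subunit gene Osmr, which transmits oncostatin M, rose by 1.41 ± 0.22 and 1.40 ± 0.21, with an interaction interval of -0.61 to 0.63. That of Osmr was 0.51 and -0.64 in the batches alone. Igdcc4 (2.29 and 2.65), Krt14 (2.27 and 2.18), Cldn14 (1.06 and 1.01) and Snx10 (0.94 and 0.95) completed the rises. The lowest WT CONT signal was 5.06 for Igdcc4 and 5.25 for Krt14. Array medians over all probes before normalization were 5.55 to 5.93. Such low signal limits what the like changes of these 2 genes can show. The falls were Gm19696 (-0.94 and -0.89), Fgd4 (-0.62 and -0.60) and Tyw5 (-0.61 and -0.60). With a limit of 33% in place of 50%, 0 genes met the rule. With each of the 23 arrays left out in turn, Snx10 kept its class 0 times and Krt14 7 times. Igdcc4 kept it 12 times, Tyw5 14, Osmr 15, Fgd4 15, Cldn14 21, Retnlg 22 and Gm19696 23.

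Some markers of other cells rose beside these genes. Of the 10 tested blood markers, 3 rose in WT and 2 in Pxr-/- mice, with S100a8 at 2.21 and 2.19 and S100a9 at 2.03 and 2.00, both neutrophil genes. Of the 10, 4 lay above 0 in each genotype, and the median change of the list was -0.17 in WT and -0.29 in Pxr-/- mice. The log2 of the summed blood markers was 17.31 to 18.84 in WT CONT, 17.47 to 18.18 in WT PCN, 17.74 to 18.73 in Pxr-/- CONT and 17.26 to 18.62 in Pxr-/- PCN. Of the 12 stellate cell markers, 5 rose in each genotype, and Col1a1, Col1a2, Col3a1 and Lum rose in both (Col1a1 by 3.17 and 1.96). Above 0 lay 9 of the 12 in WT and all 12 in Pxr-/- mice, with median changes of 0.40 and 0.18. In WT mice 1 was lower at an unadjusted p under 0.05 (limma). The summed level of the list was 14.76 to 15.64 and 15.39 to 16.12 in WT CONT and WT PCN, and 14.56 to 15.53 and 15.06 to 15.90 in the Pxr-/- groups. By limma, 0 markers of either list were called in the interaction, and 0 had an unadjusted p under 0.05. Kupffer cell, endothelial and lymphocyte markers had 0 calls by limma after PCN in either genotype or in the interaction, with 0, 3 and 2 at an unadjusted p under 0.05 in the interaction. Among 9 cholangiocyte markers, 1 rose in WT, 0 in Pxr-/- mice and 0 were called in the interaction. At an unadjusted p under 0.05 (limma), 3 were higher in WT and 4 in Pxr-/- mice. The lists are short, and 3.77% of all genes rose in WT mice. Of 15 hepatocyte markers, 1 fell in WT mice (Pck1), 1 rose in Pxr-/- mice (Apoa1) and 0 were called in the interaction by limma, which lay under 0 in 12, with 6 at an unadjusted p under 0.05. Their summed level was 21.38 to 21.53 in WT CONT, 21.34 to 21.40 in WT PCN, 21.43 to 21.49 in Pxr-/- CONT and 21.42 to 21.48 in Pxr-/- PCN, so that WT PCN lay below both Pxr-/- groups. The part of other cells in the shared changes was not tested.

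Textbook PXR targets were divided among the classes. Of 18 tested, 16 rose in WT and 4 in Pxr-/- mice, and 9 were called in the interaction, 4 with full and 5 with partial need, against 0.807% of all genes above 0. The other 7 were unresolved: Alas1, Por, Slco1a4, Papss2, Aldh1a1, Aldh1a7 and Sult1e1. Slco1a4, a hepatic uptake transporter, read 11.53, 12.19, 11.99, 11.68 and 11.58 in WT PCN mice and 8.29 to 10.54 (median 8.83) in WT CONT. It read 6.59 to 8.14 (median 7.11) in Pxr-/- CONT and 7.82 to 9.10 (median 8.57) in Pxr-/- PCN. Its change was 2.78 in WT and 1.31 in Pxr-/- mice, both called, and the interaction of 1.47 (95% interval 0.55 to 2.40) had a limma adjusted p of 0.107. Por, the electron donor of P450 enzymes, rose by 1.04 and 0.62, with an interaction interval of -0.03 to 0.87. Alas1, of heme synthesis, rose by 0.70 in WT mice and gave 0.33 in Pxr-/- mice. Cyp3a13 and the exporter gene Abcc2 were not called in either genotype. These counts are a description.

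**Figure D4:**
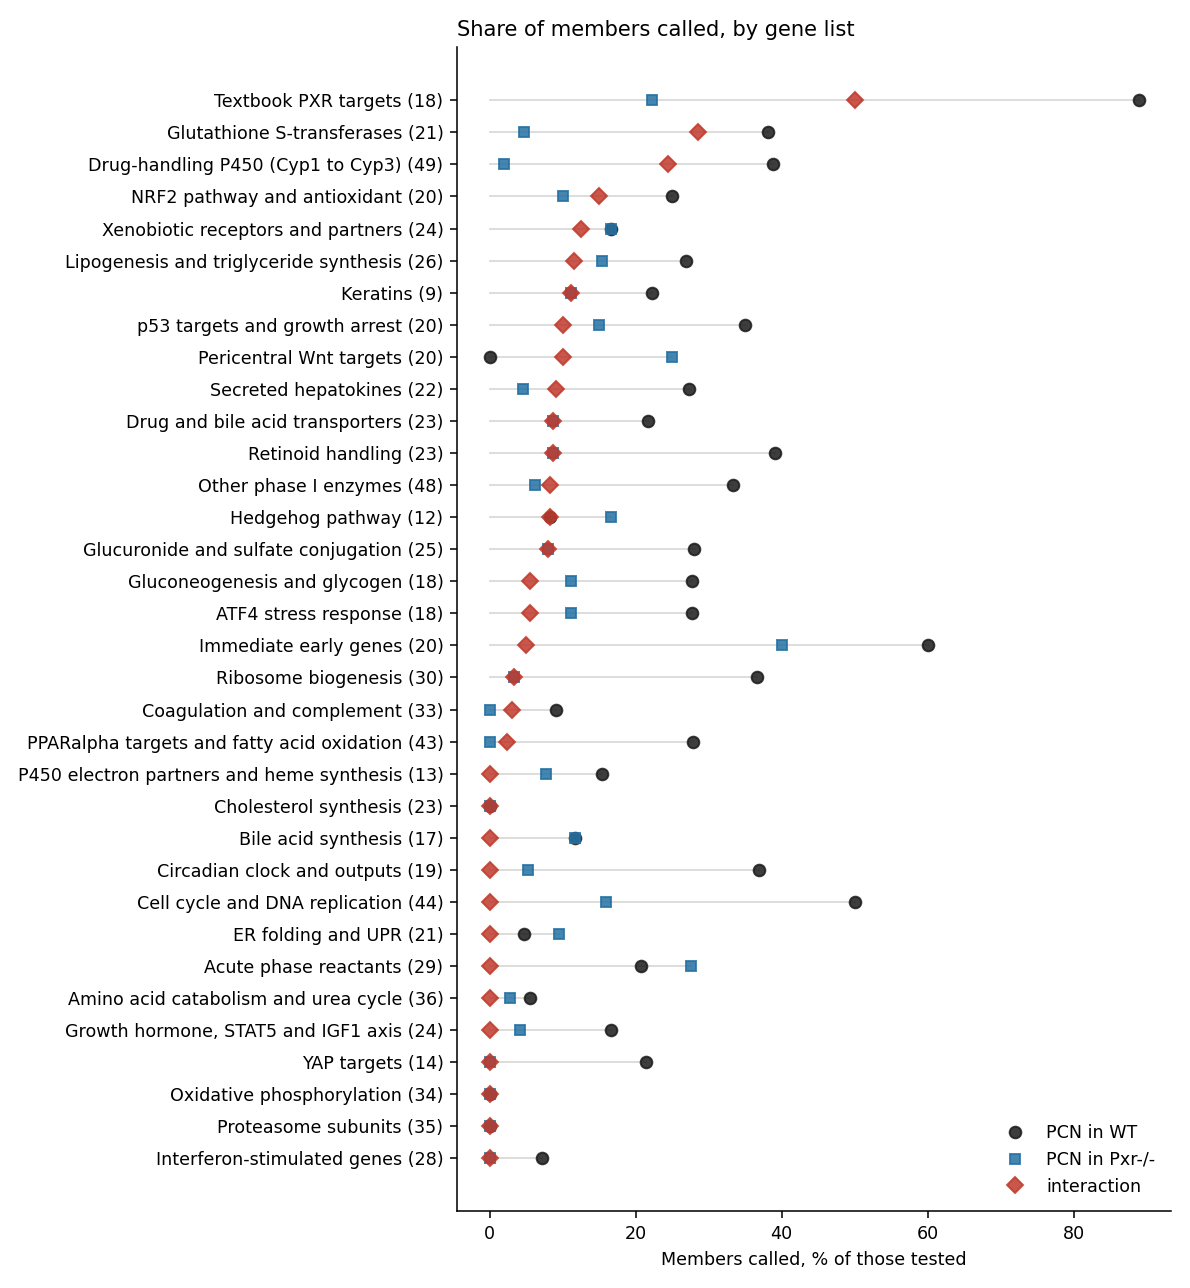
Share of the tested members of each gene list that were called after PCN in WT mice (black circles), after PCN in Pxr-/- mice (blue squares) and in the interaction (red diamonds), with the number tested in brackets. Textbook PXR targets lead in the interaction with 9 of 18, while cell cycle genes have 22 of 44 called in WT mice and 0 in the interaction.

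Most WT responses met none of the class rules. In the unresolved group, 245 genes were also called in the same direction in Pxr-/- mice and 873 were not, and none was called in the interaction. The sign of the Pxr-/- change equalled that of the WT change in 88.3% of the 1305 genes called in WT mice, and the half-width of the 95% interval of the interaction was 0.488 at the median. Over all tested genes the median interaction was -0.01, and the share with equal signs is not given here. Cell cycle genes rose in WT mice in 22 of 44 cases and in Pxr-/- mice in 7, with 0 called in the interaction by limma (3 at an unadjusted p under 0.05) and median changes of 0.76 and 0.38. Mki67, a proliferation marker, rose by 1.37 and 1.11, and Plk1, a mitotic kinase, by 1.41 and 0.96. Immediate early genes rose in 12 of 20 cases in WT and 8 in Pxr-/- mice, of which only Myc was called in the interaction. Egr1 changed by 2.48 and 2.97 and Fos by 2.00 and 1.27. Of 30 ribosome biogenesis genes, 11 rose in WT and 1 in Pxr-/- mice, and Gar1 alone was called in the interaction. The interaction of this list lay above 0 in 28 of 30, with 12 at an unadjusted p under 0.05. Acute phase genes, made by liver in inflammation, rose in 5 of 29 cases in WT and 8 in Pxr-/- mice, with 0 in the interaction (limma, 1 above and 5 under 0 at an unadjusted p under 0.05), a median change of 0.18 in WT and 0.96 in Pxr-/- mice, and an interaction under 0 in 24 of 29. Orm3 changed by 2.62 and 3.17. Ihh, a hedgehog ligand, fell by 3.04 and 1.96 on the log2 scale, with an interaction of -1.08 ± 0.41 (limma adjusted p = 0.21).

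Lipid synthesis and pericentral genes differed in how their Pxr-/- changes ran. Of 26 lipogenesis genes, 6 rose and 1 fell in WT mice, and 4 fell in Pxr-/- mice (Elovl5, Scd1, Me1 and Gpam, by 0.85, 1.5, 1.03 and 0.60). The interaction was above 0 in 24 of 26 and was called for Pnpla3, Pnpla5 and Elovl6, and the median change was 0.09 in WT and -0.48 in Pxr-/- mice. Members also started higher in Pxr-/- CONT, by a median of 0.47. Thrsp, a lipogenic regulator, rose by 1.75 in WT mice with -0.52 in Pxr-/- mice, and its interaction of 2.27 had a limma adjusted p of 0.0661. Of 20 pericentral Wnt targets, 0 were called in WT mice by limma (4 higher and 10 lower at an unadjusted p under 0.05) and 5 rose in Pxr-/- mice (Cyp1a2, Cyp27a1, Slc13a3, Ahr and Nr1i3), and the interaction was under 0 in 19 of 20 and called for Slc13a3 and Nr1i3. Cholesterol synthesis, oxidative phosphorylation and proteasome genes had 0 calls by limma in WT mice, in Pxr-/- mice and in the interaction, against 1, 2 and 4 at an unadjusted p under 0.05 in the interaction. At that unadjusted threshold, 11 of 34 oxidative phosphorylation genes were lower in WT and 23 in Pxr-/- mice. Above 0 lay 1 of the 34 in WT and 0 in Pxr-/- mice, with median changes of -0.11 and -0.17. Of 35 proteasome genes, 13 were higher and 2 lower in WT mice and 1 was higher in Pxr-/- mice, and of 23 cholesterol synthesis genes, 2 were higher and 4 lower in WT and 3 lower in Pxr-/- mice. Of 28 interferon-stimulated genes, 2 fell in WT mice and 0 were called in the interaction by limma (6 at an unadjusted p under 0.05), which lay under 0 in 27.

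Levels before PCN were compared as well, although this difference and the interaction share the vehicle-treated arrays. Among the 105 fully dependent rises, 88 stood above WT CONT in Pxr-/- CONT and 9 of these were called, and of the 26 falls, 24 stood below. The same held for 18 of 22 partial rises and 13 of 14 opposed rises, of which 6 were called. No test of this relation was made. Pxr-/- CONT was higher than WT CONT by 3.32 in Pnpla5, 2.80 in Cyp2c55, 2.38 in Ppp1r3g, 1.82 in Gask1a and 1.48 in Cyp2c38, and each of these was called. For Gadd45b (-0.02), Abcb1a (0.02) and Myc (0.19) the vehicle-treated groups differed by less than their standard error.

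**Figure D5:**
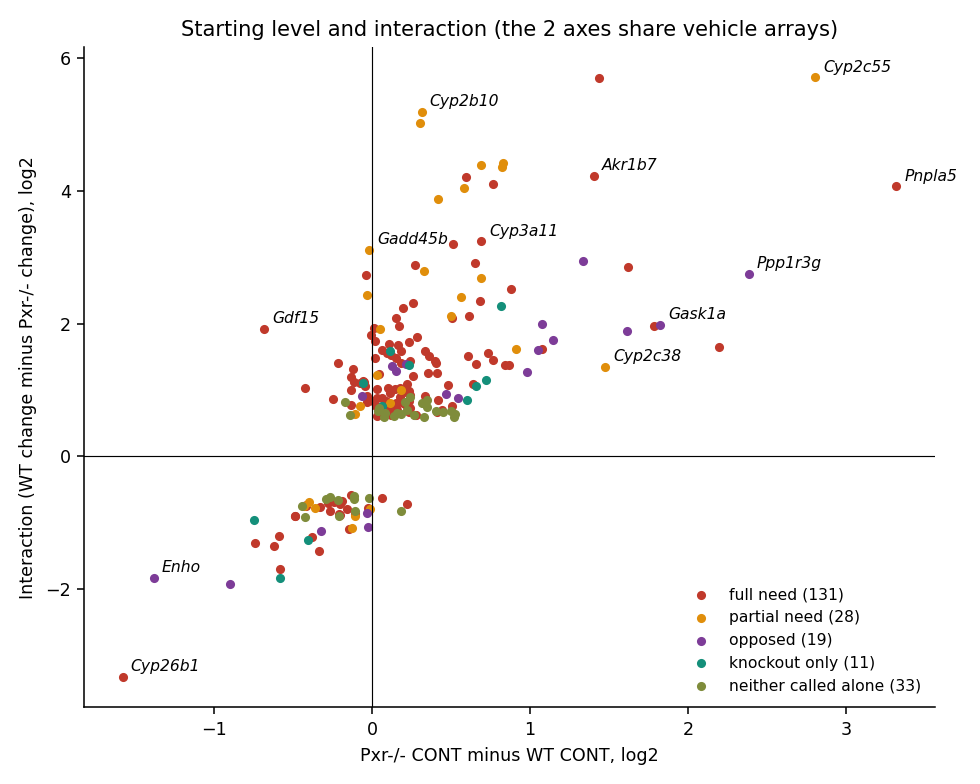
Pxr-/- CONT minus WT CONT (x axis, log2) against the interaction (y axis, log2) for the genes called in the interaction, coloured by class. Both axes use the vehicle-treated arrays and so are not independent. Pnpla5, Cyp2c55 and Gask1a lie to the right, and Gadd45b lies at a difference of -0.02.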

How the data were processed

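Liver RNA of 23 mice was measured on 23 Agilent 1-colour arrays. Per the file headers, scanner files were made with Agilent Feature Extraction 10.10.1.1 and hold spot intensity on a linear scale, not normalized between arrays. The authors also deposited normalized log2 values (median signal, correction for washing batch, then CrossNorm, per the study's methods), which served as an alternative. How arrays were stacked there was not given in the sources used here.

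Of 62976 spots per array, 59305 were not controls, and 2225 spots over all arrays with an outlier flag were left out. Log2 median signals were averaged per probe and quantile normalized. Probes well above background on over 50% of the arrays of at least 1 group were kept (32086 of 56605, naming 21183 genes, 82 missing values), and 1 probe per gene, the brightest, was read. Of the names, 15791 (74.5%) were found in RefSeq (GRCm38.p6). Probe coordinates are in mm9. No reference genome was used here.

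All arrays entered 1 limma fit (version 3.58.1, R 4.3.3) with a term per group and washing batch, leaving 18 residual degrees of freedom. P-values were adjusted by Benjamini-Hochberg. The fit was tested on simulated data. Arrays give no counts, so their number limits the precision. The members, gene lists, class rule and named genes were chosen with earlier results of these data known. Named genes were those with a RefSeq symbol and the largest interaction or WT change in each class, up to 10 per direction for full need, 8 for partial and no need and 4 for the rest, up to 2 per gene list, and a set of known PXR-related genes. A named gene is not reported here. Alternatives were the signal, background correction, normalization, filter, batch term, slide, replicate number, probe choice, fold minimum, class limit and leaving out each array.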

Additional observations from a re-analysis of the deposited data

Results flagged for a closer look

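Single arrays stood apart from the rest of their group for 35 of 468 gene and group combinations over 117 named genes, where chance gives about 1 in 20. The values below are normalized log2 signals of the array that stood apart. In WT CONT these were Cyp3a11 in replicate 6 (12.83), Cyp3a16 in replicate 6 (11.91), Pnpla3 in replicate 2 (6.71), Vmo1 in replicate 2 (9.33), Mfhas1 in replicate 4 (11.17), Elovl6 in replicate 6 (10.72), Slco1a4 in replicate 2 (10.54), Sult1e1 in replicate 2 (5.98), Mbl2 in replicate 2 (16.51), Hsd3b5 in replicate 2 (12.48) and Birc5 in replicate 2 (9.70). In WT PCN these were Cyp3a59 in replicate 1 (15.61), Igdcc4 in replicate 3 (6.66), Cxcl12 in replicate 1 (14.06), Gramd4 in replicate 4 (8.82), Atf3 in replicate 2 (8.75), Mt2 in replicate 3 (15.68) and Smo in replicate 2 (9.83). In Pxr-/- CONT these were Gm10639 in replicate 2 (13.72), Cyp3a16 in replicate 2 (12.76), Ppp1r3g in replicate 4 (7.21), Lrrc14b in replicate 1 (5.58), Abcc3 in replicate 4 (13.15), Ces2a in replicate 2 (12.62), Ces2f in replicate 2 (6.60), Myc in replicate 4 (8.45), Egr1 in replicate 2 (10.11) and Cux2 in replicate 2 (8.33). In Pxr-/- PCN these were Akr1b7 in replicate 2 (8.18), Krt14 in replicate 2 (6.23), Gm19696 in replicate 4 (8.09), Ppp1r3g in replicate 6 (9.66), Alas1 in replicate 1 (16.49), Ihh in replicate 6 (8.83) and Birc5 in replicate 2 (8.17). Replicate 2 of WT CONT accounted for 7 of them and replicate 2 of Pxr-/- CONT for 6.

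The PCN change differed between genotypes, by the interaction term of the limma fit, for 222 genes. Among genes whose changes ran in opposite directions, or were called in Pxr-/- mice alone or in neither genotype, the interactions were 2.95 for Cyp26a1, 2.75 for Ppp1r3g, 1.99 for Elovl6, 1.98 for Gask1a, 2.28 for Slc13a2, -1.83 for Slc13a3, 1.58 for Gldc, -1.27 for Nr1i3, -0.92 for Dipk2a, 0.89 for Gramd4, 0.86 for 1810021B22Rik, 0.82 for Lrrc14b, -1.84 for Enho and 0.74 for Smo on the log2 scale.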

How the results depend on the processing

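For the named genes, no called WT change, Pxr-/- change or interaction changed sign under any alternative run, whereas interactions that were not called could, as for Egr1 (1.67 and -3.14 in the washing batches alone), Mt2 (1.90 and -2.03) and Krt14 (-0.25 to 0.28 over the left-out arrays). Mfhas1 kept its class with 9 of 23 arrays left out in turn, Elovl6 with 9, Abcb1a with 12 and Gldc with 12. Counts are given as genes above 0 and under 0 for the interaction, and as rises and falls otherwise. With the deposited values the interaction had 32 genes under 0, full need 16 falls, partial need 2 falls, WT mice 1393 rises and 259 falls, and Pxr-/- mice 113 falls. With the processed signal WT mice had 859 falls and Pxr-/- mice 273. In washing batch 1 alone the interaction had 71 and 13, full need 48 and 8, partial need 11 and 0, opposed 9, and Pxr-/- mice 36 and 19. In washing batch 2 alone these were 79 and 13, 47 and 2, 12 and 1, with no need 2, WT mice 386 and 307 and Pxr-/- mice 49 and 44. Each batch alone holds fewer arrays. With no fold minimum the interaction had 107 under 0, full need 65 falls, partial need 11 falls, opposed 50, WT mice 2456 and 2634, and Pxr-/- mice 683 and 766. With a class limit of 33%, full need had 87 rises and 15 falls and no need 0. Of the 131 full-need genes, 29 became unresolved at that limit.

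Leaving out each array in turn gave 147 to 191 and 43 to 72 genes in the interaction, 95 to 119 and 21 to 36 for full need, 722 to 867 and 483 to 569 in WT mice, and 83.4 to 87.1% unresolved. Partial need ranged from 14 (without Pxr-/- PCN replicate 3) to 28 rises and from 2 (without Pxr-/- CONT replicate 1) to 8 falls. Pxr-/- mice ranged from 197 to 324 rises and 114 to 231 falls, lowest without Pxr-/- PCN replicate 4, opposed from 12 (without Pxr-/- CONT replicate 5) to 25, and no need from 4 (without WT PCN replicate 4) to 12. Of 131 full-need genes, 110 to 126 kept their class.

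With a replicate block the interaction had 179 and 58 genes, full need 101 and 27, partial need 31 and 6, opposed 25 and no need 10. Same-numbered samples correlated at -0.17 to 0.61 (13 of 33 pairs over 0.1), highest between replicate 2 of WT CONT and replicate 2 of Pxr-/- CONT. The labels do not say what a replicate number stands for, and whether same-numbered samples share more than it was not tested. With slide as a random block (consensus correlation 0.0095) every sorted gene kept its class. Over all alternatives and left-out arrays, the interactions of named genes stayed on their side of the threshold in 2162 cases and lost the call in 169, and 434 counts stayed within 1.5 times. The number of arrays and signal near background limit what could be resolved.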
